A study of Mus musculus with 36 samples.

Results

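The 42 genes described here encode the cyclins, kinases, replication factors and spindle proteins that carry a cell through division, together with 2 inhibitors of that process. They were picked by gene symbol, and each symbol had a single entry in each of the 3 deposited tables, which list 56026 gene models for bone marrow, 56575 for B16-F10 tumours and 57252 for MC38 tumours. By role they comprise 3 G1 cyclins, 4 G1/S cyclins and E2F factors, 8 genes of replication licensing and the replicative helicase, 4 genes of DNA synthesis and nucleotide supply, 7 mitotic kinases and cyclins, 14 genes of the spindle, kinetochore and chromosome, and 2 inhibitors of cyclin-dependent kinases (CDK). RNA was sequenced from wild-type (WT) mice in 36 libraries, 3 for each of 12 groups. Granulocyte-macrophage progenitors (GMP) and monocytes came from bone marrow and are named only in the sample titles, and tumour-associated macrophages (TAM) came from mice with either of 2 transplanted tumours, the B16-F10 melanoma and the MC38 colon carcinoma. Each of these 4 populations was measured after OMV-SIRP-G, after OMV-SIRP and after phosphate-buffered saline (PBS), where OMV stands for outer membrane vesicle, a particle shed by bacteria. The sources used here do not say what SIRP and G stand for, nor the dose, the schedule, the age of the mice or the sort gates. The design text mentions pooling of 3 samples per group, so p-values here measure the spread between libraries of a group, which may be only technical.

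A cell commits to division in G1, when D cyclins with CDK4 and CDK6, and then E cyclins with CDK2, release E2F factors from the retinoblastoma proteins. E2F factors switch on the genes that load and open the MCM helicase at replication origins and that supply nucleotides for S phase. A later wave, driven through FOXM1, B-MYB and NF-Y, brings cyclins A and B, CDK1, the Polo and Aurora kinases, kinesins and kinetochore proteins for mitosis. GMP are rapidly dividing progenitors, their monocyte progeny slow down as they mature, and macrophages of tumours include dividing and resting cells.

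Short sequence elements known from cell cycle promoters were counted in the promoters of these genes, and no test of a difference between roles was run. Windows of 300 bases, from 250 before to 50 after the start of transcription, were available from RefSeq (GRCm38.p6) for 34 of the 42 genes. The cell cycle homology element TTTGAA, read on either strand, was found in 12 of the 17 mitotic genes with a window (70.6%), in 2 of the 7 licensing and helicase genes (28.6%) and in 20.2% of all 27025 genes of the table. A match to an E2F spelling (TTTGGCGC, TTTCGCGC, TTTCCCGC or TTTGGCGG, either strand) was found in 1 of the 17 mitotic genes (5.88%), in 5 of the 7 licensing genes (71.4%) and in 2.7% of all genes. CCAAT, the NF-Y element, was present in 88.2% of the mitotic and 85.7% of the licensing genes, against 41.1% of all genes. The variant element TTTAAA, which is its own reverse complement, was found in 41.2% of the mitotic and 14.3% of the licensing genes, against 14.9% of all genes. Such matches describe the letters of a window and not the binding of a factor. The stretches below show 4 mitotic genes that changed in GMP after OMV-SIRP (Cdk1, Cdc20, Top2a and Kif11) and 2 helicase genes whose changes did not pass the test there (Mcm6 and Mcm5), chosen with their values known, as examples that do not stand for all members. They lie on GRCm38.p6, Cdk1 at chr10:69352913-69353052 on the minus strand, Cdc20 at chr4:118437344-118437483 on the minus strand, Top2a at chr11:99024190-99024329 on the minus strand, Kif11 at chr19:37376242-37376381 on the plus strand, Mcm6 at chr1:128359706-128359845 on the minus strand and Mcm5 at chr8:75109349-75109508 on the plus strand. Capitals mark matches, in either orientation, to TTTGAA, to the NF-Y element and to an E2F spelling, and in Mcm5 and Mcm6 pairs of E2F matches on opposite strands overlap.
Cdk1: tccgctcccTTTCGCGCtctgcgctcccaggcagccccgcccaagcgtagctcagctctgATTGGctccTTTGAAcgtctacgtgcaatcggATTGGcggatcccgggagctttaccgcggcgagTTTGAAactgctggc
Cdc20: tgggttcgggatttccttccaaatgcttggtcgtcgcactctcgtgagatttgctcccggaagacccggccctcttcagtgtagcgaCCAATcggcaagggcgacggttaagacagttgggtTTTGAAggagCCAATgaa
Top2a: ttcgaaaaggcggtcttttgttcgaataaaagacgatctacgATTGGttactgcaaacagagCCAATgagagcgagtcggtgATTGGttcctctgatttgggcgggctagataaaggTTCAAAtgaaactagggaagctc
Kif11: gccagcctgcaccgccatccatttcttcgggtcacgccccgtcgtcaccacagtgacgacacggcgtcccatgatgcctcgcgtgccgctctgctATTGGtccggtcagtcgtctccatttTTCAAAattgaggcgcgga
Mcm6: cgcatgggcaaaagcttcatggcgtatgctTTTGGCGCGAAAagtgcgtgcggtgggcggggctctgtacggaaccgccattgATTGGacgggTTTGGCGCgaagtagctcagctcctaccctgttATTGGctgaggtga
Mcm5: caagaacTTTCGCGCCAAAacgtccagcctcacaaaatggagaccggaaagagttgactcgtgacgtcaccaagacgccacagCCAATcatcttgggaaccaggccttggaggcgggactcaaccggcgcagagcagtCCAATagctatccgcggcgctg

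Between 13036567 and 19822660 reads per library fell on genes. The values are FPKM, fragments per kilobase of gene length scaled by library size, which the authors had already scaled between libraries within a table. The 3 tables were scaled separately. GMP markers (8 genes, among them Mpo and Elane) summed to 5498 to 6789 FPKM in GMP and to 329.3 to 1921 FPKM in monocytes. Monocyte markers (7 genes, among them Ly6c2 and Ccr2) summed to 1917 to 2148 FPKM in monocytes. The 7 neutrophil markers summed to 21695 to 47503 FPKM in GMP, above the GMP markers. In B16-F10 TAM, melanoma markers summed to 785.7 to 3079 FPKM and erythroid markers to 1967 to 15637 FPKM. The 8 macrophage markers summed to 4256 to 9733 FPKM there. They went against the label in MC38 tumours, where the 3 libraries labelled as TAM after PBS had sums of 58.2 to 162.3 FPKM and listed Mertk at 0, while OMV-SIRP-G had 1250.0 to 1279 and OMV-SIRP 1539.6 to 2130.5 FPKM. Monocyte PBS replicate 2 and MC38 OMV-SIRP replicate 2 also stood apart from the other libraries of their groups, and the genes called in those comparisons are given with and without them. MC38 PBS replicate 3 differed from its group as well, and counts of calls are given without it.

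The 42 genes had a higher median level in GMP than in monocytes, given here as a description with no test. The median over genes of the mean FPKM of 9 libraries was 18.5 in GMP, 12.4 in monocytes, 10.5 in B16-F10 TAM and 12.9 in MC38 TAM, and only GMP and monocytes share a table and a scaling. A mean of at least 10 FPKM was reached by 33 genes in GMP, 26 in monocytes, 23 in B16-F10 TAM and 27 in MC38 TAM. Pcna, the sliding clamp of the DNA polymerases, had the highest mean in GMP (74.0 FPKM), B16-F10 TAM (92.2 FPKM) and MC38 TAM (92.6 FPKM). In monocytes the highest mean was that of Cdkn1a, which encodes the CDK inhibitor p21 (168 FPKM), followed by Cdkn1b, which encodes p27 (49.0 FPKM).

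The populations differed in the level of the D cyclins, the regulatory partners of CDK4 and CDK6 in G1. Ccnd1 was close to absent in marrow, with 0.101, 0.164 and 0.190 FPKM in GMP after OMV-SIRP-G, 0.0930, 0.120 and 0.207 FPKM after OMV-SIRP and 0.192, 0.444 and 0.274 FPKM after PBS. Monocytes had 0.231, 0.253 and 0.248 FPKM of Ccnd1 after OMV-SIRP-G, 0.267, 0.346 and 0.238 FPKM after OMV-SIRP and 0.367, 0.340 and 0.394 FPKM after PBS. All 18 of these values lay below the 1 FPKM needed for a test, and every PBS value of monocytes except replicate 2 was above all values of the treated monocytes. Ccnd3 was the most abundant D cyclin of the marrow, at 44.6 ± 2.18, 56.1 ± 1.01 and 45.7 ± 2.73 FPKM in GMP after OMV-SIRP-G, OMV-SIRP and PBS (mean ± SD, n = 3 libraries each). In monocytes Ccnd3 averaged 39.3 ± 1.09, 39.50 ± 2.20 and 39.8 ± 2.45 FPKM in the same order of groups. In the tumours Ccnd1 averaged 23.3 ± 3.48, 24.6 ± 4.56 and 21.98 ± 2.82 FPKM in B16-F10 TAM, and Ccnd2 and Ccnd3 were both present as well. Ccnd2 was low in GMP (means of 3.45 to 4.83 FPKM) and under 1 FPKM in every monocyte library. By the filter on low values, 41 genes were tested in GMP (all but Ccnd1), 40 in monocytes (all but Ccnd1 and Ccnd2), 41 in B16-F10 TAM (all but Cenpf, the kinetochore protein CENP-F) and 42 in MC38 TAM.

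**Figure D1:**
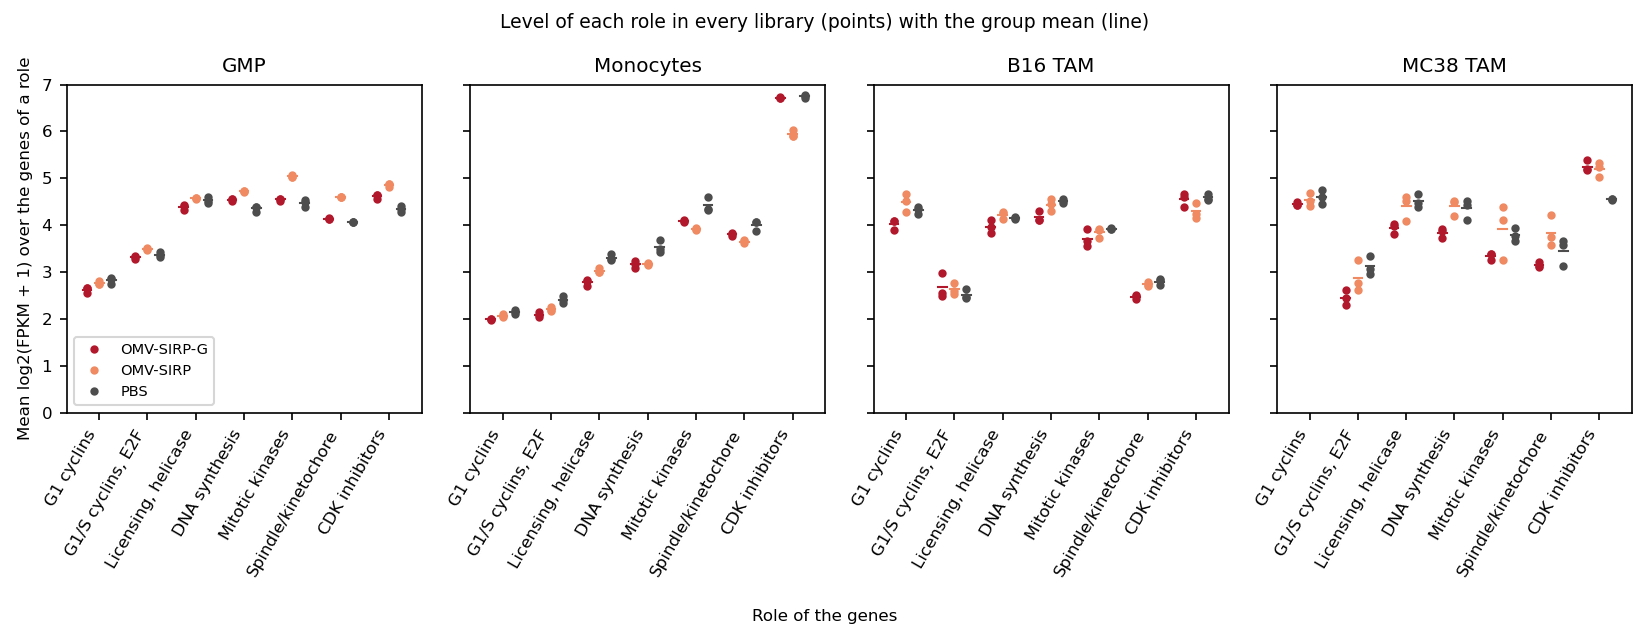
Each point is a library and shows the mean log2(FPKM + 1) over the genes of a role, with the group mean as a line, for OMV-SIRP-G, OMV-SIRP and PBS in each of the 4 populations. The mitotic roles of GMP are higher in the 3 OMV-SIRP libraries than in the other 6, and levels across populations are set side by side only, since the tables were scaled separately.

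In GMP, OMV-SIRP raised the mitotic genes as a block. All 7 mitotic kinases and cyclins and all 14 genes of the spindle, kinetochore and chromosome were higher after OMV-SIRP than after PBS, by 0.22 (Cenpa, the centromeric histone) to 0.80 (Bub1) as a difference of mean log2(FPKM + 1), a measure in which weakly expressed genes seem to change less than they do. Of the 8 licensing and helicase genes 2 passed the test, and the difference between the roles was not tested. Of the 41 genes tested, 30 were higher and 1 was lower at a limma adjusted p under 0.05, where 18.2% of all 12287 genes tested were called (10.6% higher and 7.52% lower). The median change of the 41 genes was 0.40, against 0.02 for all genes tested.

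Top2a, the topoisomerase that untangles sister chromosomes (chr11:98992943-99024189), had 63.1, 60.1 and 59.6 FPKM after OMV-SIRP and 41.6, 39.4 and 39.02 FPKM after PBS, a log2 change of 0.59 (SE 0.04, limma adjusted p = 3.3e-05). Kif11, the kinesin that pushes spindle poles apart (chr19:37376403-37421859), had 26.3, 26.6 and 25.1 FPKM after OMV-SIRP and 17.7, 17.45 and 16.9 FPKM after PBS, a log2 change of 0.56 (SE 0.04, limma adjusted p = 3.3e-05). Bub1, a kinase of the spindle checkpoint (chr2:127801122-127831865), had 17.4, 16.1 and 16.6 FPKM after OMV-SIRP and 9.40, 9.15 and 8.96 FPKM after PBS, a log2 change of 0.80 (SE 0.06, limma adjusted p = 4e-05). For these 3 genes each OMV-SIRP library was well above each PBS library, and the libraries of a group lay close together. Cdk1, the kinase that triggers mitosis, had 22.46, 20.9 and 21.1 FPKM after OMV-SIRP and 11.4, 13.3 and 13.9 FPKM after PBS (log2 change 0.70, SE 0.07, limma adjusted p = 0.00015). Mki67, which encodes the proliferation antigen Ki-67, had 69.7, 67.2 and 67.1 FPKM after OMV-SIRP and 55.98, 47.46 and 46.9 FPKM after PBS (log2 change 0.44, SE 0.07, limma adjusted p = 0.0019). The groups did not overlap for either gene, although PBS replicate 1 had the highest Mki67 and the lowest Cdk1 of its group.

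The partners of these genes moved by similar amounts. The cyclins Ccna2 (0.72), Ccnb2 (0.53) and Ccnb1 (0.34), which activate CDK1, rose with it. So did the Polo kinase Plk1 (0.55) and the Aurora kinases Aurka (0.58) and Aurkb (0.55). Birc5, which encodes the Aurora B partner survivin, rose by 0.72, and the microtubule binders Nusap1 and Tpx2 rose by 0.71 and 0.51. Cdc20, the activator of the anaphase-promoting complex, had 57.1, 61.8 and 58.55 FPKM after OMV-SIRP and 39.7, 39.9 and 43.9 FPKM after PBS (log2 change 0.51, SE 0.05, limma adjusted p = 0.0002). For all 21 mitotic genes the 3 OMV-SIRP libraries lay above the 3 PBS libraries, where 36.2% of all genes tested had groups that did not overlap. Bulk libraries cannot tell more cells in mitosis from more mitotic RNA per cell.

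**Figure D2:**
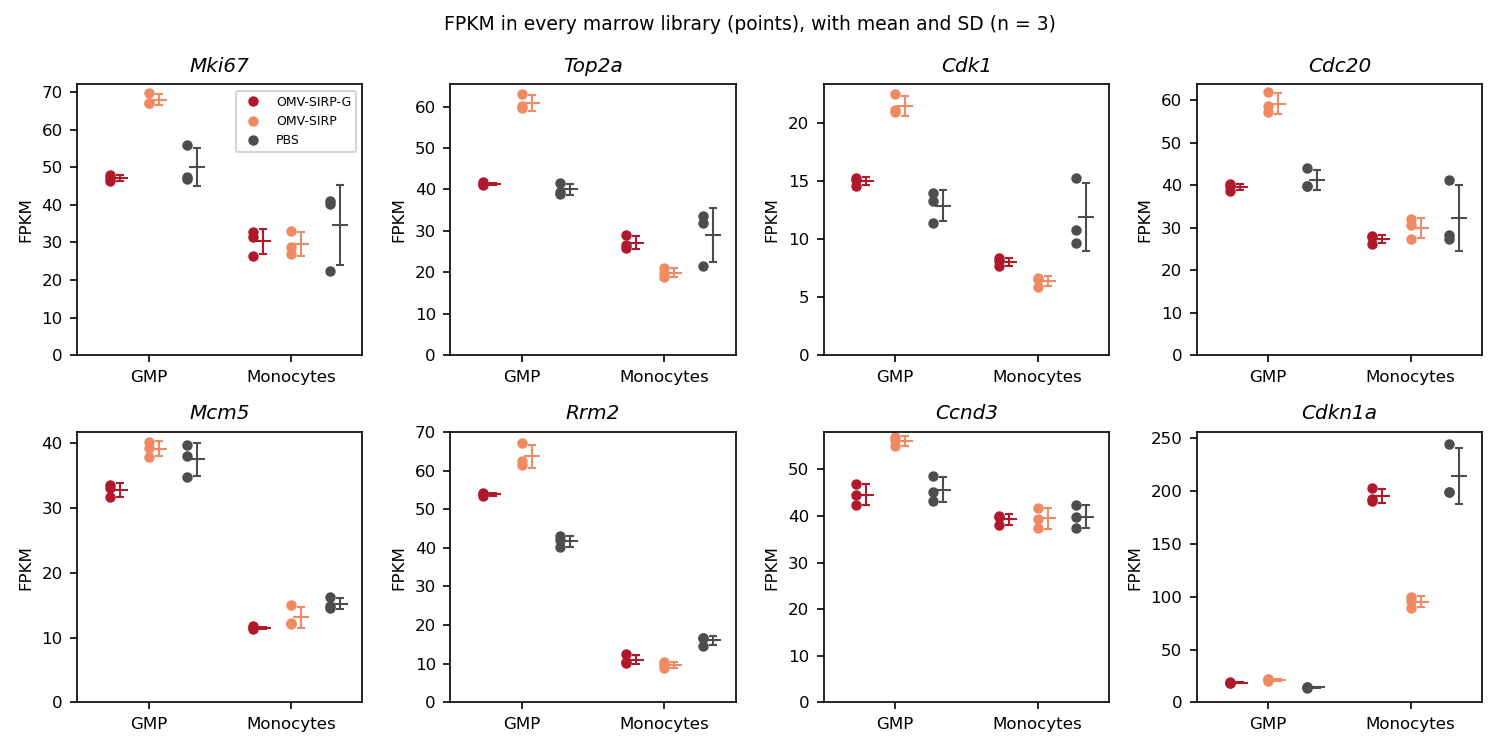
FPKM of 8 genes in every GMP and monocyte library (points), with the mean and SD of each group of 3, ordered OMV-SIRP-G, OMV-SIRP and PBS. In GMP, Top2a lies between 59.6 and 63.1 FPKM after OMV-SIRP and between 39.0 and 41.7 FPKM in the other 6 libraries, while in monocytes Cdkn1a lies between 89.7 and 99.6 FPKM after OMV-SIRP and above 190 in the other 6.

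The S phase genes of GMP divided after OMV-SIRP. The nucleotide supply genes Rrm2, the regulated subunit of ribonucleotide reductase, Rrm1, its catalytic subunit, and Tyms, thymidylate synthase, rose by 0.60, 0.30 and 0.40. Rrm2 had 62.4, 61.49 and 67.1 FPKM after OMV-SIRP and 40.2, 41.9 and 42.96 FPKM after PBS (limma adjusted p = 4.7e-05). Pcna changed by 0.16 (SE 0.06, limma adjusted p = 0.12) and did not pass. Mcm5, a subunit of the helicase, had 40.2, 39.3 and 37.9 FPKM after OMV-SIRP and 34.7, 38.1 and 39.7 FPKM after PBS (log2 change 0.06, SE 0.06, limma adjusted p = 0.49), and its groups overlapped. The helicase subunits Mcm2 (-0.11), Mcm3 (-0.06), Mcm4 (-0.08) and Mcm6 (-0.07) and the loader Cdc6 (0.02) did not pass either. The 2 licensing genes that rose were Mcm7 (log2 change 0.38, SE 0.08, limma adjusted p = 0.0077) and Cdc45, a helicase cofactor (log2 change 0.21, SE 0.05, limma adjusted p = 0.023). Upstream of S phase, Ccne1, a cyclin E, rose by 0.36, whereas Ccne2 (0.08), E2f1 (-0.06) and E2f8, a repressor of the E2F family (0.13), did not pass. The promoter matches did not follow these calls gene by gene. The 5 mitotic genes with no TTTGAA in the window (Bub1, Birc5, Nusap1, Ccnb1 and Cenpe) also rose, although the call of Cenpe was lost in 8 alternative runs. Of these genes, Birc5, Ccnb1 and Cenpe carry the variant TTTAAA, and Bub1 and Nusap1 carry neither element. Mcm7 rose with E2F matches in 1 of its 2 windows, and Mcm2, which carries TTTGAA, did not pass.

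The G1 cyclins and the inhibitors also moved. Ccnd3 rose (log2 change 0.29, SE 0.06, limma adjusted p = 0.0064), and Ccnd2 was the single gene of the 41 that fell (log2 change -0.28, SE 0.06, limma adjusted p = 0.0091). Both CDK inhibitors rose together with the mitotic genes. Cdkn1a (chr17:29090976-29100727) had 20.6, 21.7 and 21.8 FPKM after OMV-SIRP and 13.8, 14.46 and 14.95 FPKM after PBS (log2 change 0.54, SE 0.05, limma adjusted p = 9.1e-05), without overlap. Cdkn1b averaged 36.4 ± 0.752 FPKM after OMV-SIRP and 25.9 ± 1.10 FPKM after PBS (log2 change 0.48, SE 0.05, limma adjusted p = 0.00015). Scaling to total reads in place of the authors' scaling gave 27 higher and 5 lower genes. Of the 31 calls, 28 held in every alternative run. The exceptions were Cenpe, the kinetochore kinesin, lost without any 1 of OMV-SIRP replicates 1, 2 and 3 or PBS replicates 2 and 3 (adjusted p up to 0.11), Cdc45, lost without any OMV-SIRP replicate or PBS replicate 2 (up to 0.11), and Cenpa, lost without OMV-SIRP replicate 2 (up to 0.075 over all alternatives).

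Cell cycle genes outside the 42 were counted in the same way. Of 43 other mitotic genes, 39 rose and none fell, among them Tacc3 (0.69), Cdca8 (0.61), Racgap1 (0.66) and Nuf2 (0.60), which act at the spindle, the chromosomal passenger complex, the cleavage furrow and the kinetochore. Of 34 other replication genes, 9 rose and none fell, among them Tk1 (0.54), Dbf4 (0.35), Pola1 (0.37) and Gmnn (0.35), which encode thymidine kinase, the activator of the Cdc7 kinase, a polymerase subunit and geminin, an inhibitor of licensing. The median change was 0.45 for the mitotic and 0.17 for the replication list, against 0.02 for all genes. Of 17 other G1 regulators, Cks1b (0.42) and E2f7 (0.27) rose and Cdk6 (-0.28), a partner of the D cyclins, fell. The genes of p18 and p19, inhibitors of CDK4 and CDK6, rose too, Cdkn2c (0.43) and Cdkn2d (0.41).

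Markers of maturing neutrophils moved with the mitotic genes in GMP. The 7 neutrophil markers, among them Ly6g, Camp and S100a8, summed to 27992 to 29845 FPKM after OMV-SIRP-G, 44622 to 47503 FPKM after OMV-SIRP and 21695 to 31566 FPKM after PBS, and all 7 were higher after OMV-SIRP than after PBS. The 8 GMP markers summed to 6122 to 6574, 6270.1 to 6458 and 5498 to 6789 FPKM in the same groups and overlapped. Erythroid markers were lower after both treatments, at 4.61 to 5.90 FPKM after OMV-SIRP-G and 4.28 to 5.97 FPKM after OMV-SIRP, against 35.8 to 50.2 FPKM after PBS. The part of these cell markers in the cell cycle result was not tested.

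After OMV-SIRP-G, 3 of the 21 mitotic genes of GMP passed the test against PBS. Mki67 had 46.4, 47.04 and 48.05 FPKM after OMV-SIRP-G, against 55.98, 47.46 and 46.9 FPKM after PBS (log2 change -0.08, SE 0.07, limma adjusted p = 0.50). Top2a had 41.3, 41.1 and 41.7 FPKM after OMV-SIRP-G, against 41.6, 39.4 and 39.02 FPKM after PBS (log2 change 0.05, SE 0.04, limma adjusted p = 0.56). Cdk1 had 15.04, 15.3 and 14.6 FPKM after OMV-SIRP-G, against 11.4, 13.3 and 13.9 FPKM after PBS (log2 change 0.21, SE 0.07, limma adjusted p = 0.090). The ranges of Mki67 and Top2a overlapped between the groups, and those of Cdk1 did not, where 30.3% of all genes had groups that did not overlap. Of the 41 genes, 7 rose and 6 fell, where 12% of all genes tested were called (6.76% higher and 5.22% lower), and the median change was 0.04, against 0.00 for all genes. Scaling to total reads gave 6 higher and 8 lower.

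Of the 8 licensing genes 4 fell after OMV-SIRP-G in GMP, and the difference between roles was not tested. The licensing genes Mcm2 (-0.28), Mcm3 (-0.20), Mcm4 (-0.18) and Cdc6 (-0.27) fell, and so did E2f1 (-0.28) and Ccnd2 (-0.39). Mcm5 had 31.7, 33.1 and 33.6 FPKM after OMV-SIRP-G, against 34.7, 38.1 and 39.7 FPKM after PBS, lower in each library but not past the test (log2 change -0.19, SE 0.06, limma adjusted p = 0.062). Rrm2 rose, with 54.3, 53.4 and 53.8 FPKM after OMV-SIRP-G and 40.2, 41.9 and 42.96 FPKM after PBS (log2 change 0.36, SE 0.05, limma adjusted p = 0.0011). The other genes that rose were Ccne1 (0.28), Ccna2 (0.24), Birc5 (0.33), the checkpoint gene Bub1b (0.18) and both inhibitors. Cdkn1a had 18.04, 18.7 and 19.1 FPKM after OMV-SIRP-G, against 13.8, 14.46 and 14.95 FPKM after PBS (log2 change 0.35, SE 0.05, limma adjusted p = 0.0015), without overlap. The calls of Rrm2, Cdkn1a, Ccnd2 and Mcm2 held in every alternative run, while those of Mcm3, Mcm4, Cdc6, Ccna2, Bub1b and Ccne1 were each lost in 5 to 8 of them. The number called was 5, 6 and 8 without OMV-SIRP-G replicates 1, 2 and 3, and 14, 8 and 8 without PBS replicates 1, 2 and 3.

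Among the other lists, 2 replication genes rose and 3 fell after OMV-SIRP-G in GMP, including Lig1 (-0.38) and Cdt1 (-0.36), a DNA ligase and a licensing factor, which fell, and Tk1 (0.29) and Pola1 (0.24), which rose. Of 43 other mitotic genes 4 rose, Cdca8 (0.23), Racgap1 (0.24), Ndc80 (0.26) and Spc25 (0.30). The phosphatase gene Cdc25a (-0.30), whose product activates CDK2, fell. Of 13 p53 target genes tested, 5 rose and 2 fell, among them the antiproliferative Btg2 (log2 change 0.64, SE 0.04, limma adjusted p = 2.2e-05), Plk2 (0.79) and the stress cytokine Gdf15 (0.65), which rose, and Perp (-0.74), which fell. Macrophage markers moved too, at 257.3 to 265.5 FPKM after OMV-SIRP-G, 185.0 to 195.4 FPKM after OMV-SIRP and 120.2 to 144.7 FPKM after PBS, and their part was not tested.

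Most of these genes were lower in GMP after OMV-SIRP-G than after OMV-SIRP. Of the 41 genes 33 were lower and none was higher, where 14.8% of all genes tested were called (8.12% lower and 6.7% higher), and the median change was -0.32, against -0.01 for all genes. This comparison uses the same OMV-SIRP libraries as the one with PBS, and the values of the 2 comparisons are not independent. All 21 mitotic genes were lower, with log2 changes of -0.27 (Cenpa) to -0.61 (Ccnb2). Top2a differed by -0.55 (SE 0.04, limma adjusted p = 0.00011) and Cdc20 by -0.57 (SE 0.05, limma adjusted p = 0.00024). Mki67 differed by -0.52 (SE 0.07, limma adjusted p = 0.0010) and Cdk1 by -0.49 (SE 0.07, limma adjusted p = 0.0016). Kif11 had 19.1, 19.2 and 19.2 FPKM and Bub1 11.6, 10.9 and 9.82 FPKM after OMV-SIRP-G, against the OMV-SIRP values given above. For each of these 6 genes the 3 OMV-SIRP-G libraries lay below the 3 OMV-SIRP libraries, where 41% of all genes had groups that did not overlap. Other transcripts moved with this difference. The 7 mitochondrial transcripts summed to 6496 to 6655 FPKM after OMV-SIRP-G, 4798 to 5136 FPKM after OMV-SIRP and 4944 to 6317 FPKM after PBS, and 4 of the 7 were higher after OMV-SIRP-G than after OMV-SIRP. Of the 7 neutrophil markers 5 were lower and 2 higher in this comparison, and 4 of the 6 macrophage markers tested and all 4 markers of mast cells and basophils were higher. Their part in the result was not tested.

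The S phase and G1 genes followed in part. Mcm5 (-0.25), Mcm7 (-0.31), Cdc6 (-0.29), Mcm2 (-0.17) and Cdc45 (-0.18) were lower after OMV-SIRP-G than after OMV-SIRP, and Mcm3, Mcm4 and Mcm6 did not pass. Tyms (-0.31), Rrm2 (-0.24), E2f8 (-0.32), E2f1 (-0.21) and Ccnd3 (-0.32) were lower as well. So were both inhibitors, Cdkn1b (log2 change -0.29, SE 0.05, limma adjusted p = 0.0039) and Cdkn1a (log2 change -0.19, SE 0.05, limma adjusted p = 0.030). Leaving out 1 library at a time gave 24 to 29 calls, and 24 of the 33 genes were called in every alternative. The 9 genes lost in at least 1 of these were Cdkn1a, E2f1, Mcm2, Cdc45, E2f8, Cdc6, Mcm5, Mcm7 and Cenpe, lost without OMV-SIRP-G replicate 1 (all but Cenpe), OMV-SIRP replicate 2 (all 9) or others, with adjusted p-values up to 0.19. Of the 43 other mitotic genes 36 were lower, among them Tacc3 (-0.54), Hmmr (-0.58), Nuf2 (-0.44) and Ube2c (-0.57), and of the 34 other replication genes 11 were lower, among them Lig1 (-0.49), Uhrf1 (-0.35), Chaf1a (-0.32) and Rpa1 (-0.22). In contrast, Cdk6 (0.33) was higher.

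**Figure D3:**
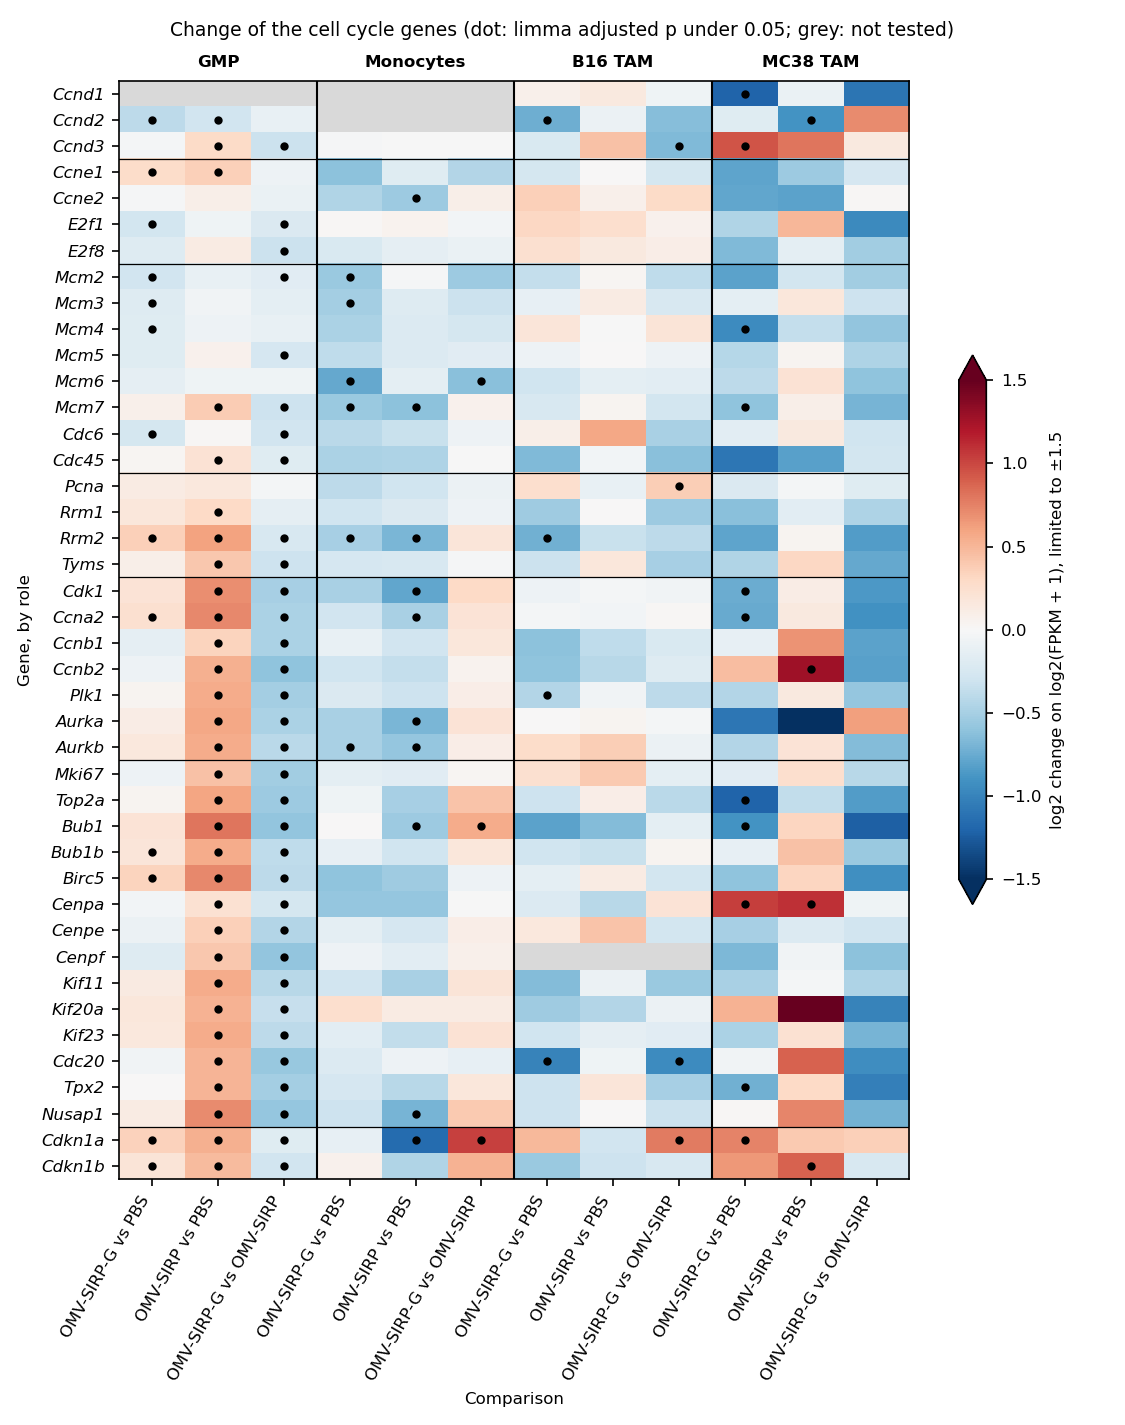
Log2 change of the 42 genes (down the page, by role) in the 12 comparisons (across, by population), red for higher and blue for lower in the group named first, with the colours limited as marked on the scale, with a dot where the limma adjusted p was under 0.05 and grey where a gene was not tested. The mitotic genes of GMP are red for OMV-SIRP against PBS and blue for OMV-SIRP-G against OMV-SIRP, 21 of 21 called in each.

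In monocytes 10 of the 40 genes tested fell after OMV-SIRP and 6 after OMV-SIRP-G, and 2 of the 10 (Cdkn1a and Nusap1) and 1 of the 6 (the helicase gene Mcm6) were called in every alternative. Of the 10 genes that fell after OMV-SIRP 6 were mitotic, and of the 6 that fell after OMV-SIRP-G 4 were helicase genes. The 40 genes tested hold 7 mitotic kinases and cyclins, 14 genes of the spindle, kinetochore and chromosome and 8 licensing and helicase genes. Whether a role was called more often than the others was not tested. Mcm7, Aurkb and Rrm2 fell in both comparisons, which share the PBS libraries. The number of calls depended on PBS replicate 2. That library had the highest Birc5 of its group (34.0 FPKM, against 14.0 and 14.5 in the other 2 PBS libraries) and the lowest Mki67 (22.4 FPKM, against 40.4 and 41.1). The 2 genes differ in length (3402 and 10061 bases). Over the 40 genes, log2 gene length correlated at -0.60 with the log2 difference of this library from the rest of its group. For PBS replicates 1 and 3 the values were 0.53 and 0.59. Replicate 2 is part of the rest of their group, so these values are not independent of its own. The treated libraries ran from -0.405 to 0.529. Over all genes the correlation was -0.32 for PBS replicate 2, against 0.26 and 0.305 for replicates 1 and 3, with the same dependence. The FPKM of PBS replicate 2 summed to 538012, against 332949 and 332452. Its GMP markers summed to 1921 FPKM, against 896.0 and 877.8 FPKM, its neutrophil markers to 6328 FPKM, against 2379.8 and 2629 FPKM, and its erythroid markers to 383 FPKM, against 137 and 122 FPKM. The part of any of these in the results was not tested.

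After OMV-SIRP, 10 of the 40 genes tested in monocytes fell and none rose, where 8.53% of all 12028 genes were called (5.46% lower and 3.07% higher), and the median change was -0.32, against -0.03 for all genes. Cdkn1a fell most clearly, with 99.6, 89.7 and 96.4 FPKM after OMV-SIRP and 198.7, 244.5 and 199.1 FPKM after PBS (log2 change -1.15, SE 0.12, limma adjusted p = 0.0013). Nusap1 had 8.82, 7.94 and 8.83 FPKM after OMV-SIRP and 13.4, 15.7 and 14.3 FPKM after PBS (log2 change -0.70, SE 0.09, limma adjusted p = 0.0040). Cdk1 had 6.59, 6.66 and 5.87 FPKM after OMV-SIRP and 10.8, 15.2 and 9.68 FPKM after PBS (log2 change -0.78, SE 0.15, limma adjusted p = 0.018). The groups did not overlap for any of the 3, where 29.8% of all genes had groups that did not overlap. The other genes that fell were Aurka (-0.68), Rrm2 (-0.68), Mcm7 (-0.62), Aurkb (-0.58), Bub1 (-0.55), Ccne2 (-0.54) and Ccna2 (-0.49). Mki67 had 33.2, 26.99 and 28.8 FPKM after OMV-SIRP, against 40.4, 22.4 and 41.1 FPKM after PBS (log2 change -0.17, SE 0.23, limma adjusted p = 0.70), and its groups overlapped through PBS replicate 2. Top2a had 21.01, 18.7 and 19.9 FPKM after OMV-SIRP, against 31.9, 21.49 and 33.7 FPKM after PBS (log2 change -0.50, SE 0.16, limma adjusted p = 0.10), with no overlap. Mcm5 had 12.2, 12.3 and 14.96 FPKM after OMV-SIRP, against 14.95, 16.2 and 14.6 FPKM after PBS (log2 change -0.20, SE 0.10, limma adjusted p = 0.28), and overlapped.

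Without PBS replicate 2, 3563 of all genes tested were called after OMV-SIRP, against 1026 with all libraries. Of the cell cycle genes, 24 were lower and none was higher. They included 6 of the 7 mitotic kinases and cyclins, 11 of the 14 spindle, kinetochore and chromosome genes and both inhibitors, and 1 of the 8 licensing genes. In that fit Top2a differed by -0.70 (SE 0.07, limma adjusted p = 0.00032), Kif11 by -0.69, Mki67 by -0.45 (SE 0.11, limma adjusted p = 0.016) and Cdkn1a by -1.06 (SE 0.06, limma adjusted p = 2.2e-05). The other genes called with all libraries were lower in it too, namely Nusap1 (-0.64), Cdk1 (-0.61), Aurka (-0.49), Rrm2 (-0.65), Mcm7 (-0.49), Aurkb (-0.52), Bub1 (-0.64), Ccne2 (-0.58) and Ccna2 (-0.55). The number of calls was 2, 5 and 4 without OMV-SIRP replicates 1, 2 and 3, and 8 and 7 without PBS replicates 1 and 3. Of the 10 genes, Cdkn1a and Nusap1 were called in every alternative.

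Of 43 other mitotic genes tested 10 fell after OMV-SIRP and none rose, among them Ndc80 (-0.89), Pbk (-0.79), Ncaph (-0.66) and Cdc25b (-0.61). Of 28 other replication genes tested 4 fell, Orc6 (-0.58), Dbf4 (-0.51), Mcm10 (-0.47) and Slbp (-0.42). Over all genes tested, 8.53% were called (5.46% lower and 3.07% higher). The inhibitor genes Cdkn2c (-0.65) and Cdkn2d (-1.20) fell with Cdkn1a. Of 13 p53 targets tested Btg2 rose (0.74) and Plk2 (-0.86), Sesn2 (-0.46) and Gadd45a (-0.93) fell. The GMP markers, which the least mature cells express, summed to 329.3 to 372.9 FPKM after OMV-SIRP-G, 542.5 to 611.6 FPKM after OMV-SIRP and 896.0, 1921 and 877.8 FPKM after PBS, so the sum of each treated library was below each PBS library, while the monocyte sums overlapped in all 3 groups. Without PBS replicate 2, 2 of the 8 GMP markers were higher and 3 lower after OMV-SIRP, and 6 were lower after OMV-SIRP-G and none higher. Macrophage markers summed to 414.4 to 459.5 FPKM after OMV-SIRP-G, 627.8 to 730.6 FPKM after OMV-SIRP and 524.1, 1055.7 and 505.5 FPKM after PBS. Without that library 5 of the 6 tested were higher after OMV-SIRP than after PBS and none lower, and 5 were lower after OMV-SIRP-G than after OMV-SIRP and none higher. Erythroid markers summed to 14.7 to 18.8 FPKM after OMV-SIRP-G, 7.85 to 8.31 FPKM after OMV-SIRP and 122.3 to 382.7 FPKM after PBS, and both of the 2 tested fell after each treatment. B cell markers summed to 9.40 to 10.2 FPKM after OMV-SIRP-G, 14.7 to 17.1 FPKM after OMV-SIRP and 23.6 to 46.4 FPKM after PBS. T and NK cell markers summed to 2.12 to 2.82 FPKM after OMV-SIRP-G, 2.54 to 3.56 FPKM after OMV-SIRP and 10.45 to 21.6 FPKM after PBS. The part of these cell markers in the lower cell cycle genes was not tested. Without PBS replicate 2, 31 of the 43 other mitotic genes and 8 of the 28 other replication genes were lower after OMV-SIRP, in the fit with 3563 calls over all genes. Cdkn2d then differed by -0.89 and Gadd45a by -0.65.

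After OMV-SIRP-G, 6 of the 40 genes fell in monocytes and none rose, where 3.67% of all genes were called (2.14% lower and 1.53% higher), and the median change was -0.29, against -0.01 for all genes. These were the helicase genes Mcm6, Mcm2, Mcm7 and Mcm3 with Aurkb and Rrm2. Mcm6 had 7.22, 7.47 and 6.20 FPKM after OMV-SIRP-G and 12.53, 13.6 and 11.7 FPKM after PBS (log2 change -0.77, SE 0.10, limma adjusted p = 0.0042). Mcm5 had 11.4, 11.7 and 11.3 FPKM after OMV-SIRP-G and 14.95, 16.2 and 14.6 FPKM after PBS (log2 change -0.38, SE 0.10, limma adjusted p = 0.11). Neither gene's groups overlapped, and the same held for all 8 licensing genes, where 22.7% of all genes had groups that did not overlap. Mcm2 (-0.55), Mcm7 (-0.55), Mcm3 (-0.51), Aurkb (-0.49) and Rrm2 (-0.50, adjusted p = 0.0498 by limma) were closer to the threshold. Nusap1 had 11.7, 11.52 and 11.2 FPKM after OMV-SIRP-G (log2 change -0.31 against PBS, SE 0.09, limma adjusted p = 0.15), and Cdk1 had 8.07, 7.65 and 8.37 FPKM (log2 change -0.49, SE 0.15, limma adjusted p = 0.16). Mki67 had 31.53, 32.9 and 26.4 FPKM and Top2a 26.6, 28.97 and 25.8 FPKM after OMV-SIRP-G, and both overlapped with PBS. Cdkn1a had 202.7, 192.3 and 190.9 FPKM after OMV-SIRP-G (log2 change -0.13 against PBS, SE 0.12, limma adjusted p = 0.64) and overlapped with PBS.

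Without PBS replicate 2, 20 genes were lower after OMV-SIRP-G and none was higher, among them 6 of the 8 licensing genes, 4 of the 7 mitotic kinases and cyclins and 5 of the 14 spindle genes. In that fit 1479 of all genes tested were called, against 442 with all libraries. Mcm6 then differed by -0.72 (SE 0.08, limma adjusted p = 0.00084), Mcm4 by -0.57 and Mcm5 by -0.33 (SE 0.09, limma adjusted p = 0.044). Also lower in that fit were Mcm2 (-0.60), Mcm3 (-0.52), Mcm7 (-0.43), Aurkb (-0.43) and Rrm2 (-0.47). Without any other single library 1 or 2 genes were called (1 without OMV-SIRP-G replicate 1, 2 or 3, and 2 without PBS replicate 1 or 3). Mcm6 was the 1 call that every alternative kept. Outside the 42 genes, 3 other mitotic genes fell, Mybl2 (-0.72), Ndc80 (-0.46) and Ncaph (-0.43), and so did the growth regulator Myc, with a log2 change of -0.99 (SE 0.09, limma adjusted p = 0.0008).

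In monocytes Cdkn1a was higher after OMV-SIRP-G than after OMV-SIRP, and Mcm6 was lower. Of the 40 genes Cdkn1a and Bub1 were higher and Mcm6 was lower, where 2.44% of all genes were called (1.59% higher and 0.848% lower), and the median change was 0.07, against 0.01 for all genes. Cdkn1a differed by 1.03 (SE 0.12, limma adjusted p = 0.0054), Bub1 by 0.56 (SE 0.11, limma adjusted p = 0.036) and Mcm6 by -0.62 (SE 0.10, limma adjusted p = 0.020), and the groups did not overlap for any of them, where 37.6% of all genes had groups that did not overlap. Bub1 had 14.3, 13.4 and 15.1 FPKM after OMV-SIRP-G and 9.73, 9.17 and 9.22 FPKM after OMV-SIRP, and Mcm6 had 7.22, 7.47 and 6.20 FPKM after OMV-SIRP-G and 11.1, 11.1 and 11.4 FPKM after OMV-SIRP. Scaling to total reads gave 1 higher and 1 lower. Cdkn1a alone was called without any 1 of the 6 libraries compared. PBS replicate 2 was also left out of the shared estimate of spread, which changes none of the libraries compared and was chosen after seeing the data. That fit gave 2516 calls over all genes tested, against 293 with the library kept. Among the cell cycle genes it gave 8 higher and 4 lower. The higher ones were Cdkn1a (1.03), Bub1 (0.56), Cdkn1b (0.52), Top2a (0.43), Nusap1 (0.39), Cdk1 (0.29), Ccna2 (0.21) and Aurka (0.20). The lower ones were Mcm6 (-0.62), Mcm2 (-0.54), Ccne1 (-0.44) and Mcm3 (-0.32). Among other lists Myc was lower (log2 change -0.96, SE 0.09, limma adjusted p = 0.0025), the p53 targets Sesn2 (0.75) and Plk2 (0.50) were higher, and no other mitotic gene of 43 was called. Of these 43, 7 had an unadjusted limma p under 0.05, where 1792 of all 12028 genes tested did. Once PBS replicate 2 was left out of the spread, 16 of the 43 were called higher, in the fit with 2516 calls over all genes.

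**Figure D4:**
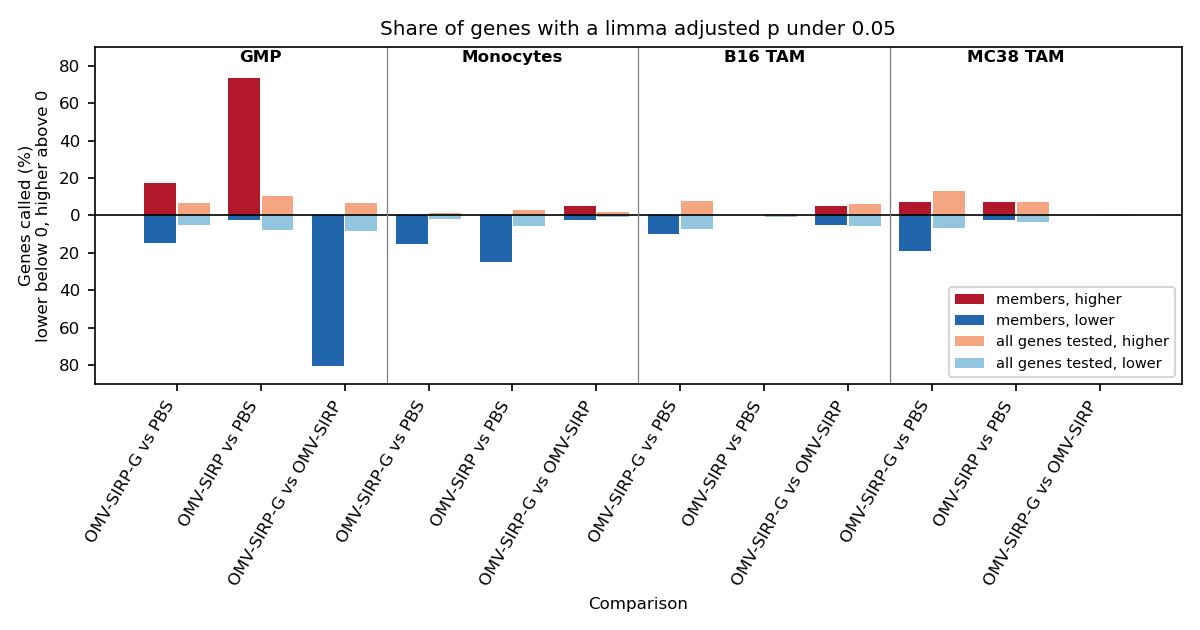
Share of the tested cell cycle genes called higher or lower in each of the 12 comparisons, beside the share of all tested genes. In GMP after OMV-SIRP against PBS, 30 of 41 genes are called higher, while 18.2% of all genes are called in either direction, and in B16-F10 TAM after OMV-SIRP against PBS none is called.

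In B16-F10 TAM none of the 41 cell cycle genes tested passed after OMV-SIRP. By limma 1 gene had an unadjusted p under 0.05, where 1204 of all 12542 genes tested did, and 1.45% of all genes were called. The changes ran from -0.65 (Bub1) to 0.58 (Cdc6), with a median of 0.00, against -0.01 for all genes. Mki67 had 7.43, 7.01 and 5.52 FPKM after OMV-SIRP and 4.11, 5.22 and 5.18 FPKM after PBS (log2 change 0.39, SE 0.20, limma adjusted p = 0.61). Top2a had 10.3, 10.6 and 6.94 FPKM after OMV-SIRP and 8.10, 8.87 and 8.40 FPKM after PBS (log2 change 0.10, SE 0.19, limma adjusted p = 0.94). Each OMV-SIRP library was above each PBS library for Mki67, where 16.6% of all genes had groups that did not overlap, and the groups overlapped for Top2a. The median standard error of the genes was 0.20 on the log2 scale, against 0.06 in GMP, so that changes of the size seen in GMP would be harder to call here.

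After OMV-SIRP-G few of these genes passed against PBS in B16-F10 TAM. Of the 41 genes 4 fell and none rose, where 15.1% of all genes were called (7.28% lower), so calls in either direction were no more frequent than over all genes. The median change was -0.26, against -0.03 for all genes. Cdc20 (chr4:118432901-118437352), whose promoter is printed above, had 17.96, 12 and 15.52 FPKM after OMV-SIRP-G and 28.47, 32.8 and 31.50 FPKM after PBS (log2 change -0.997, SE 0.15, limma adjusted p = 0.0014). Rrm2 had 16.50, 23.48 and 20.9 FPKM after OMV-SIRP-G and 36.1, 35.01 and 30.4 FPKM after PBS (log2 change -0.72, SE 0.15, limma adjusted p = 0.0095). Ccnd2 had 11.4, 12.2 and 7.70 FPKM after OMV-SIRP-G and 16.2, 18.3 and 18.6 FPKM after PBS (log2 change -0.73, SE 0.19, limma adjusted p = 0.025). All 3 were lower in each OMV-SIRP-G library than in any PBS library, where 36% of all genes had groups that did not overlap. Plk1 was the fourth, at 15.1 ± 1.28 FPKM after OMV-SIRP-G and 20.8 ± 1.64 FPKM after PBS (log2 change -0.44, SE 0.12, limma adjusted p = 0.037).

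Mki67, Top2a, Cdk1, Mcm5 and Ccnd1 did not pass in these TAM. Mki67 had 4.42, 6.38 and 7.03 FPKM after OMV-SIRP-G (log2 change 0.24 against PBS, SE 0.20, limma adjusted p = 0.48), and Top2a had 5.45, 7.83 and 6.85 FPKM (log2 change -0.31, SE 0.19, limma adjusted p = 0.33), below each PBS library. Cdk1 had 9.001, 9.57 and 9.17 FPKM after OMV-SIRP-G, 8.42, 10.6 and 9.999 FPKM after OMV-SIRP and 9.40, 10.7 and 9.35 FPKM after PBS, with overlap between all groups. Mcm5 had 35.3, 30.50 and 38 FPKM after OMV-SIRP-G, 38.4, 39.3 and 31.98 FPKM after OMV-SIRP and 35.8, 39.02 and 34.2 FPKM after PBS, again with overlap. Ccnd1 had 27.1, 22.50 and 20.2 FPKM after OMV-SIRP-G, 26.4, 27.9 and 19.4 FPKM after OMV-SIRP and 19.2, 24.8 and 21.9 FPKM after PBS, with overlap too. Cdc20 and Rrm2 were called in every alternative. Leaving out OMV-SIRP-G replicates 1, 2 and 3 gave counts of 4, 3 and 5, and leaving out PBS replicate 1 gave 3. Only 2 genes were called without PBS replicate 2 or PBS replicate 3, where both Ccnd2 and Plk1 were lost, Ccnd2 was also lost without OMV-SIRP-G replicate 3, and Plk1 also without OMV-SIRP-G replicate 2 or 3 or PBS replicate 1.

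Against OMV-SIRP, 2 genes were higher and 2 lower after OMV-SIRP-G in B16-F10 TAM, where 12% of all genes were called (6.35% higher and 5.62% lower). Calls were again no more frequent than over all genes. The median change was -0.22, against -0.02 for all genes. Cdkn1a had 50.4, 47.6 and 68.3 FPKM after OMV-SIRP-G and 26.3, 35.49 and 33.55 FPKM after OMV-SIRP (log2 change 0.78, SE 0.16, limma adjusted p = 0.011), while PBS had 41.1, 37.02 and 38.4 FPKM. The OMV-SIRP-G libraries were above all others, where 27.9% of all genes did not overlap between these treatments, and the OMV-SIRP libraries were below the PBS libraries, the last difference not past the test (log2 change -0.29, SE 0.16, limma adjusted p = 0.64). Pcna averaged 106.1 ± 5.58 FPKM after OMV-SIRP-G and 82.03 ± 9.01 FPKM after OMV-SIRP (log2 change 0.37, SE 0.11, limma adjusted p = 0.047). Cdc20 was lower (log2 change -0.94, SE 0.15, limma adjusted p = 0.0026), with 28.95, 30.1 and 29.8 FPKM after OMV-SIRP, and so was Ccnd3 (log2 change -0.66, SE 0.13, limma adjusted p = 0.0075). Rrm2 had 30.1, 24.8 and 25.2 FPKM and Ccnd2 15.6, 20.1 and 14.4 FPKM after OMV-SIRP, and neither difference from OMV-SIRP-G passed. The call of Pcna was lost without any 1 of OMV-SIRP-G replicates 1, 2 and 3 or OMV-SIRP replicates 1 and 2.

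Other cell cycle genes moved singly in B16-F10 TAM after OMV-SIRP-G. Against PBS, Dut (-1.01) and Rpa1 (-0.51) fell among 34 replication genes, while Incenp (0.57) rose and Racgap1 (-0.59) fell among 40 mitotic genes. Over all genes tested, 15.1% were called (7.83% higher and 7.28% lower), so calls in these lists were no more frequent. Cdk2, the partner of the E cyclins, fell, with a log2 change of -1.63 (SE 0.13, limma adjusted p = 5.3e-05), and Cdk6 rose (0.73). Against OMV-SIRP, Cdk2 was lower as well (-1.34). The cell markers of these libraries differed between the groups. Macrophage markers summed to 9226 to 9733 FPKM after OMV-SIRP-G, 4256 to 6213 FPKM after OMV-SIRP and 4824 to 5402 FPKM after PBS, with all 8 higher after OMV-SIRP-G than in either other group. Melanoma markers (6 genes, among them Pmel and Tyrp1) summed to 785.7 to 891.2 FPKM after OMV-SIRP-G, 2311 to 2565 FPKM after OMV-SIRP and 2829.7 to 3079 FPKM after PBS, with all 6 lower after OMV-SIRP-G. T and NK cell markers summed to 97.6 to 120.0 FPKM after OMV-SIRP-G, 89.3 to 107.8 FPKM after OMV-SIRP and 249.4 to 305.9 FPKM after PBS. Monocyte markers summed to 388.1 to 395.7 FPKM after OMV-SIRP-G, 161.8 to 163.9 FPKM after OMV-SIRP and 122.1 to 134.7 FPKM after PBS, with 6 of 7 higher after OMV-SIRP-G than in either other group. Erythroid markers summed to 2802 to 2847 FPKM after OMV-SIRP-G, 1967 to 2654 FPKM after OMV-SIRP and 14267 to 15637 FPKM after PBS, with 3 of the 4 tested lower after each treatment than after PBS. Mitochondrial transcripts summed to 87083 to 95617 FPKM after OMV-SIRP-G, 121686 to 145335 FPKM after OMV-SIRP and 101593 to 131895 FPKM after PBS, with 2 of 7 lower after OMV-SIRP-G than after PBS and 4 of 7 lower than after OMV-SIRP. The part of these cells and transcripts in the results, tumour cells included, was not tested.

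In MC38 tumours Ccnd1 and Top2a were lower and Cdkn1a was higher after OMV-SIRP-G than in the libraries labelled PBS. Against the libraries labelled PBS, 3 of the 42 genes were higher and 8 lower after OMV-SIRP-G, where 19.9% of all 14089 genes were called (13.1% higher and 6.86% lower), and the median change was -0.46, against 0.07 for all genes. Top2a had 21.4, 18.6 and 19.9 FPKM after OMV-SIRP-G and 47.8, 48.99 and 44.7 FPKM in the libraries labelled PBS (log2 change -1.20, SE 0.17, limma adjusted p = 0.0020). Ccnd1 (chr7:144929931-144939925) had 33.4, 31.4 and 32.7 FPKM after OMV-SIRP-G and 87.7, 79.9 and 62.45 FPKM in the libraries labelled PBS (log2 change -1.20, SE 0.19, limma adjusted p = 0.0036). Mcm4 had 18.9, 19.6 and 18.4 FPKM after OMV-SIRP-G and 37.4, 32.4 and 43.4 FPKM in the libraries labelled PBS (log2 change -0.95, SE 0.17, limma adjusted p = 0.0056). In all 3 the OMV-SIRP-G libraries lay well below the libraries labelled PBS and within a narrow range, where 45.6% of all genes had groups that did not overlap. Cdk1 had 7.74, 4.90 and 5.27 FPKM after OMV-SIRP-G and 11.1, 10.2 and 10.3 FPKM in the libraries labelled PBS (log2 change -0.74, SE 0.22, limma adjusted p = 0.042). The other genes that fell were Bub1 (-0.90), Ccna2 (-0.76), Tpx2 (-0.72) and Mcm7 (-0.61).

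The genes that rose were an inhibitor, a D cyclin and the centromeric histone. Cdkn1a had 82.46, 65.9 and 71.9 FPKM after OMV-SIRP-G and 44.3, 40.4 and 44.8 FPKM in the libraries labelled PBS (log2 change 0.75, SE 0.14, limma adjusted p = 0.0078), without overlap. Ccnd3 averaged 12.9 ± 1.11 FPKM after OMV-SIRP-G and 6.30 ± 1.60 FPKM in the libraries labelled PBS (log2 change 0.94, SE 0.23, limma adjusted p = 0.021), so that Ccnd1 and Ccnd3 moved in opposite directions. Cenpa averaged 12.46 ± 1.31 FPKM after OMV-SIRP-G and 5.55 ± 0.0498 FPKM in the libraries labelled PBS (log2 change 1.03, SE 0.20, limma adjusted p = 0.0076). Mki67 had 20.9, 18.98 and 19.6 FPKM after OMV-SIRP-G and 20.01, 24.1 and 23.3 FPKM in the libraries labelled PBS (log2 change -0.17, SE 0.21, limma adjusted p = 0.61), with overlap. Mcm5 had 32.1, 25.3 and 25.7 FPKM after OMV-SIRP-G and 34.97, 32.7 and 45.4 FPKM in the libraries labelled PBS (log2 change -0.42, SE 0.24, limma adjusted p = 0.25). Top2a, Ccnd1, Mcm4, Cenpa and Cdkn1a were called in every alternative. Leaving out OMV-SIRP-G replicates 1, 2 and 3 gave counts of 6, 5 and 5, against 7, 8 and 9 without PBS replicates 1, 2 and 3. Of the other lists, 7 of 43 mitotic genes fell, among them Ect2 (-1.47), Pbk (-1.41), Smc2 (-1.04) and Kif18b (-1.001). So did 5 of 34 replication genes, among them Prim2 (-1.37), Mcm8 (-1.29), Rfc4 (-1.12) and Mcm10 (-0.97). Over all genes tested, 19.9% were called (13.1% higher and 6.86% lower). Among 17 G1 regulators 4 fell, among them Tfdp1 (-1.12), E2f3 (-1.12) and Myc (-1.13), and E2f2 rose (1.17).

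After OMV-SIRP, MC38 libraries had higher Cenpa, Ccnb2 and Cdkn1b and lower Ccnd2. Against the libraries labelled PBS 3 of the 42 genes were higher and 1 was lower, where 10.9% of all genes were called (7.4% higher and 3.49% lower), so calls were no more frequent than over all genes. The median change was 0.15, against 0.03 for all genes. Cenpa had 16.52, 11.2 and 11.8 FPKM after OMV-SIRP and 5.60, 5.499 and 5.56 FPKM in the libraries labelled PBS (log2 change 1.10, SE 0.20, limma adjusted p = 0.010). Ccnb2 had 48.2, 21.6 and 30.1 FPKM after OMV-SIRP and 11.54, 13.8 and 12.2 FPKM in the libraries labelled PBS (log2 change 1.27, SE 0.30, limma adjusted p = 0.030). Cdkn1b averaged 22.3 ± 4.52 FPKM after OMV-SIRP and 11.45 ± 0.787 FPKM in the libraries labelled PBS (log2 change 0.89, SE 0.23, limma adjusted p = 0.039). For all 3 each OMV-SIRP library was above each library labelled PBS, where 28.4% of all genes had groups that did not overlap. Ccnd2 was lower, with 8.82, 17.7 and 13.7 FPKM after OMV-SIRP and 22.9, 27.3 and 24.6 FPKM in the libraries labelled PBS (log2 change -0.90, SE 0.23, limma adjusted p = 0.039). Ccnd1 had 85.2, 56.1 and 73.2 FPKM after OMV-SIRP and overlapped with the libraries labelled PBS (log2 change -0.11, SE 0.19, limma adjusted p = 0.76).

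Several genes varied widely between the 3 OMV-SIRP libraries of MC38 tumours. Top2a had 44.7, 33.6 and 31.95 FPKM after OMV-SIRP (log2 change -0.37 against the libraries labelled PBS, SE 0.17, limma adjusted p = 0.18), and Mki67 had 36.9, 21.9 and 23.8 FPKM. Cdk1 had 13.3, 12.02 and 9.38 FPKM, Mcm4 26.6, 27.2 and 33.97 FPKM and Mcm5 46.4, 26.3 and 45.8 FPKM after OMV-SIRP. Cdkn1a had 53.46, 55.2 and 62.7 FPKM after OMV-SIRP, above every library labelled PBS and below every OMV-SIRP-G library, and did not pass (log2 change 0.39, SE 0.14, limma adjusted p = 0.11). Aurka was listed at 0 in OMV-SIRP replicate 2 and at 18.1 and 19.3 FPKM in the other 2. That replicate had at least 1 read for 12818 genes, against 13470 to 21580 in the other 8 MC38 libraries. The 13470 belonged to PBS replicate 3, where the lowest value of a spindle, kinetochore and chromosome gene was 0. Its macrophage markers summed to 162.3 FPKM, against 58.2 and 58.8 FPKM in PBS replicates 1 and 2, and its erythroid markers to 6193 FPKM, against 2033 and 2224 FPKM. Without OMV-SIRP replicate 2, Ccnb2 (1.54), Cenpa (1.19) and Nusap1 (1.03) were higher and Ccnd2 (-1.11) lower than in the libraries labelled PBS, and the call of Cdkn1b (0.74) was lost. None of the 4 calls held in every alternative. The count of calls was 1 without OMV-SIRP replicate 1, 3 without OMV-SIRP replicate 3, and 1, 2 and 1 without PBS replicates 1, 2 and 3. Scaling to total reads moved the median of all genes to -0.27 and that of the 42 genes to -0.21, and gave 1 higher and 4 lower.

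No gene passed between OMV-SIRP-G and OMV-SIRP in MC38 tumours by limma, where 0.383% of all genes were called. Of the 42 genes, 21 had an unadjusted limma p under 0.05, where 1675 of all 14089 genes tested did. The median change of the 42 genes was -0.59, against 0.05 for all genes, and the median standard error of the genes was 0.26. Ccnd1 was lower in each OMV-SIRP-G library than in any OMV-SIRP library (log2 change -1.09, SE 0.19, limma adjusted p = 0.058), and so were Top2a (log2 change -0.83, SE 0.17, limma adjusted p = 0.092) and Ccna2 (log2 change -0.91, SE 0.17, limma adjusted p = 0.086), where 22.5% of all genes had groups that did not overlap. Without OMV-SIRP replicate 2, Ccnd1 (log2 change -1.26, SE 0.17, limma adjusted p = 0.025) and Ccna2 (log2 change -1.04, SE 0.15, limma adjusted p = 0.027) were called lower, and 1 gene was called without OMV-SIRP replicate 3.

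Beside all comparisons with the libraries labelled PBS of MC38 tumours stands the difference in cell markers given above, with macrophage sums of 1250.0 to 1279 FPKM after OMV-SIRP-G, 1539.6 to 2130.5 FPKM after OMV-SIRP and 58.2 to 162.3 FPKM in the libraries labelled PBS, and with all 8 macrophage markers higher after either treatment. Monocyte markers summed to 203.0 to 208.1 FPKM after OMV-SIRP-G, 100.7 to 374.0 FPKM after OMV-SIRP and 11.8 to 35.4 FPKM in the libraries labelled PBS. Mitochondrial transcripts summed to 34941 to 37005 FPKM after OMV-SIRP-G, 94086 to 151618 FPKM after OMV-SIRP and 13086 to 22649 FPKM in the libraries labelled PBS. Neutrophil markers summed to 31.8 to 47.6 FPKM after OMV-SIRP-G, 30.49 to 156.3 FPKM after OMV-SIRP and 248.2 to 548.7 FPKM in the libraries labelled PBS, and Ly6g was listed at 0 in all 9. T and NK cell markers summed to 458.4 to 503.3 FPKM after OMV-SIRP-G, 184.5 to 529.5 FPKM after OMV-SIRP and 87.9 to 215.4 FPKM in the libraries labelled PBS. Epithelial or carcinoma markers summed to 30.9 to 33.2 FPKM after OMV-SIRP-G, 12.95 to 29.6 FPKM after OMV-SIRP and 1.73 to 14.4 FPKM in the libraries labelled PBS. Treatment and the cell makeup of these libraries cannot be told apart.

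**Figure D5:**
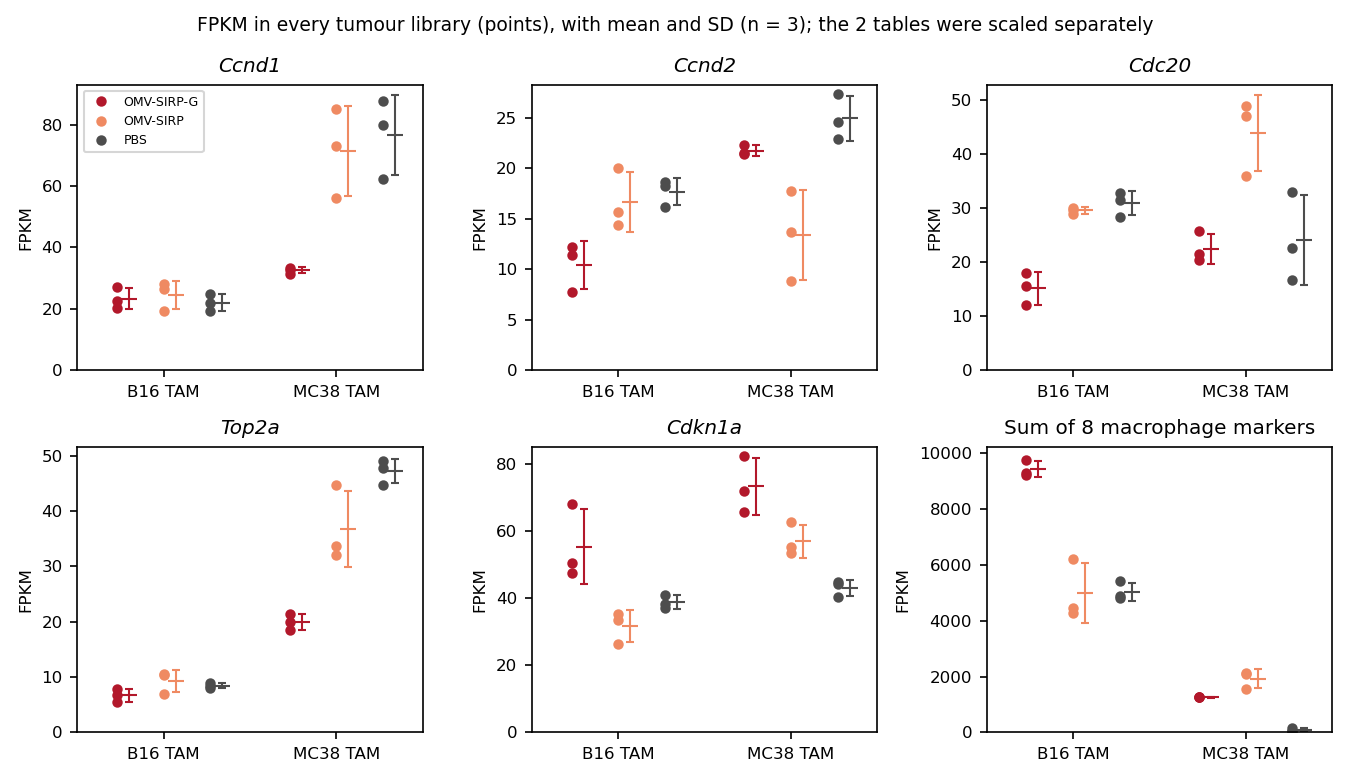
FPKM of 5 genes and the sum of the 8 macrophage markers in every B16-F10 and MC38 library (points), with the mean and SD of each group of 3, ordered OMV-SIRP-G, OMV-SIRP and PBS. In MC38 tumours Ccnd1 lies between 31.4 and 33.4 FPKM after OMV-SIRP-G and between 56.1 and 87.7 FPKM in the other 6 libraries, and the macrophage sum is lowest in the libraries labelled PBS.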

How the data were processed

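RNA of 36 libraries was extracted with TRIzol and made into libraries with the NEBNext mRNA kit, per the labels' protocols. The submitters' processing notes name GRCm38, HISAT2 2.0.5, StringTie and featureCounts 1.5.0-p3, with no role given. The authors deposited FPKM per gene in 3 tables (bone marrow, B16-F10 and MC38), each scaled between its own libraries. FPKM multiplied by gene length gave whole reads for 99.95% or more of the values (tolerance 0.05), 13036567 to 19822660 reads per library, so low genes carry the counting error of few reads. The members and lists were chosen with earlier results of these data known.

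Within each population, limma 3.58.1 (R 4.3.3, trend and robust options, statmod 1.5.0) was fitted to log2(FPKM + 1) of 9 libraries. Genes with at least 1 FPKM in at least 3 libraries were tested, with Benjamini-Hochberg adjustment over all of them at 0.05. Tables were summarised with Python 3.11.15 and pandas 2.3.3 and drawn with matplotlib 3.10.9. The procedure was tested on simulated data. Values per library are given for Mki67, Top2a, Cdk1, Mcm5, Ccnd1, Cdkn1a and the 3 genes with the lowest adjusted p against PBS in each population, and for further genes picked after their values were seen. Alternatives were a pseudocount of 0.1, no filter, scaling to total reads, a fit of the 2 groups alone, a block for replicate number, and leaving out each library.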

Additional observations from a re-analysis of the deposited data

Results flagged for a closer look

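Several genes moved in opposite directions under the same comparison in different populations, passing the limma test in each with no overlap between libraries. The differences between populations were not tested, and no explanation was weighed. For OMV-SIRP against PBS, 9 of the 40 genes tested in both (22.5%) were called higher in GMP and lower in monocytes, where 2.04% of all 11200 genes tested in both were called in opposite directions, also without overlap. The log2 changes in GMP and in monocytes were 0.38 and -0.62 for Mcm7, 0.60 and -0.68 for Rrm2, 0.70 and -0.78 for Cdk1, and 0.72 and -0.49 for Ccna2. They were 0.58 and -0.68 for Aurka, 0.55 and -0.58 for Aurkb, 0.80 and -0.55 for Bub1, and 0.71 and -0.70 for Nusap1. Cdkn1a, the p21 gene, had the widest gap, with 0.54 in GMP and -1.15 in monocytes. Counting genes whose groups did not overlap in either population, whether or not they passed the test, 21 of the 40 genes (52.5%) had opposite changes in GMP and monocytes, where 9.35% of all 11200 genes did.

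For OMV-SIRP-G against PBS, Rrm2 changed by 0.36 in GMP, by -0.50 in monocytes and by -0.72 in B16-F10 TAM. Ccna2 changed by 0.24 in GMP and by -0.76 in MC38 tumours, where the libraries labelled PBS have low macrophage markers. For OMV-SIRP-G against OMV-SIRP, Bub1 changed by -0.59 in GMP and by 0.56 in monocytes. Cdkn1a changed by -0.19 in GMP, by 1.03 in monocytes and by 0.78 in B16-F10 TAM in that comparison. The monocyte values against PBS include PBS replicate 2. Without it the changes after OMV-SIRP were -1.06 for Cdkn1a, -0.64 for Nusap1, -0.49 for Mcm7, -0.65 for Rrm2 and -0.61 for Cdk1. They were -0.55 for Ccna2, -0.49 for Aurka, -0.52 for Aurkb and -0.64 for Bub1, and -0.47 for Rrm2 after OMV-SIRP-G. All were still called lower. Other alternative runs lost many of these calls. In monocytes after OMV-SIRP, Ccna2, Aurka and Bub1 were each lost in 7, Mcm7 in 5, Cdk1 in 4, Aurkb in 2 and Rrm2 in 1. After OMV-SIRP-G against PBS, Rrm2 was lost in 10 in monocytes, and Ccna2 in 7 in GMP and 3 in MC38 tumours. Between the treatments, Bub1 was lost in 9 in monocytes and Cdkn1a in 7 in GMP.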

How the results depend on the processing

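Counts of genes called (in order OMV-SIRP against PBS, OMV-SIRP-G against PBS, OMV-SIRP-G against OMV-SIRP) that moved by over 1.5 times were as follows, and the cause was not tested. With only the 2 groups compared in the fit, GMP gave 5 in place of 13 after OMV-SIRP-G against PBS, monocytes gave 3 in place of 10, 1 in place of 6 and 10 in place of 3, and MC38 gave 0 in place of 4 after OMV-SIRP. With no filter, monocytes gave 3 in place of 6, and MC38 gave 2 in place of 4 and 7 in place of 11. Scaling to total reads gave 2 in place of 6 in monocytes after OMV-SIRP-G. Limma voom on reads recovered from the FPKM was also run; it called more of these genes in B16-F10 after OMV-SIRP-G and a few between the treatments in MC38, and its counts are left out because the deposited unit is FPKM and not counts. Leaving monocyte PBS replicate 2 out of the spread gave 12 in place of 3 between the treatments, and 2516 in place of 293 over all genes.

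Leaving out 1 library at a time gave calls of 28 to 32, 5 to 14 and 24 to 29 (GMP), 2 to 24, 1 to 20 and 1 (monocytes), 0, 2 to 5 and 3 to 4 (B16-F10) and 1 to 4, 5 to 9 and 0 to 2 (MC38). Over the genes called, no alternative reversed a direction. Leaving out a library kept 516 calls and lost 201, and scaling to total reads kept 99 and lost 20. Total reads moved the median of all genes to 0.11 in monocytes (OMV-SIRP against PBS) and to -0.27, -0.08 and 0.21 in the MC38 comparisons.

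Replicate number as a block gave 31, 9 and 30 calls in GMP, 6, 1 and 1 in monocytes, 0, 3 and 4 in B16-F10 and 2, 8 and 0 in MC38 tumours. Libraries with the same number had deviations that correlated at -0.02 to 0.22 (GMP), -0.37 to 0.25 (monocytes), 0.00 to 0.08 (B16-F10) and -0.03 to 0.05 (MC38), so the numbers were not taken as a pairing. With 3 libraries a group, the median standard error was 0.06, 0.13, 0.20 and 0.26 in the 4 populations in that order, and small changes in TAM were not detectable at this precision.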

Other observations

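Target genes of p53 outside the 42 moved in both directions in most comparisons with calls. In some comparisons more of them moved with Cdkn1a, itself a p53 target, than against it, and this was not tested. In monocytes after OMV-SIRP, where Cdkn1a fell, 3 of 13 targets fell (Plk2, Sesn2 and Gadd45a) and Btg2 rose, while 8.53% of all genes were called. Without PBS replicate 2, 5 targets fell and 3 rose, with a median change of 0.09. Between OMV-SIRP-G and OMV-SIRP in monocytes, where Cdkn1a was higher, 2 targets were higher and none was lower, while 2.44% of all genes were called. With PBS replicate 2 left out of the spread, 5 were higher and 1 was lower. In GMP after OMV-SIRP-G, where Cdkn1a rose, 5 targets rose and 2 fell, while 12% of all genes were called. Against OMV-SIRP, where Cdkn1a was lower, 4 were higher and none was lower, while 14.8% of all genes were called. In MC38 tumours after OMV-SIRP-G, Btg2 rose with a log2 change of 3.07 (SE 0.31, limma adjusted p = 0.00056) against the libraries labelled PBS, and Gdf15 fell with -2.06 (SE 0.38, limma adjusted p = 0.0068). After OMV-SIRP in the same tumours Btg2 rose (2.17) and 5 of 14 p53 targets fell, while 10.9% of all genes were called. In B16-F10 TAM after OMV-SIRP-G, Plk2 rose (0.80 against PBS and 1.16 against OMV-SIRP), while Phlda3 (-0.92), Trp53inp1 (-0.78) and Sesn2 (-0.64) fell against PBS. In GMP after OMV-SIRP, Gadd45a rose (0.33) and Perp fell (-1.03) among 13 targets tested.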
